A study of Arabidopsis thaliana with 4 samples.

Results

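Genes of jasmonate metabolism and of defensin and thionin outputs were examined in leaves of jaw-D and Columbia plants of Arabidopsis thaliana. They were the enzyme genes OPCL1 and JMT, the plant defensin genes PDF1.2 and PDF1.2b, and the thionin gene THI2.1. Members were the probe sets that the platform annotation pairs with exactly 1 gene and whose symbol was 1 of these 5 names, which gave 5 probe sets, 1 for each gene, out of 22746. The match was on the exact symbol, so PDF1A and PDF1B, which are peptide deformylase genes and not defensins, did not enter. RNA came from expanded leaves of plants grown in short days and was measured on single-colour arrays, 2 from the jaw-D mutant and 2 from the Columbia accession, the wild type here. The series concerns overexpression of miR319a, and jaw-D is known as a dominant activation-tagged line, in which enhancers inserted near MIR319A raise its expression. The labels do not give the age of the plants, the number of plants in a sample or whether the 2 samples of a genotype came from separate plants, so each p-value speaks only of the spread among these 4 samples, which could be technical.

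Jasmonates are lipid-derived hormones of wounding, defence and leaf ageing. Their synthesis starts from linolenic acid in the chloroplast and ends in the peroxisome, and the hormone lifts the repression of transcription factors that switch on defence genes. The factors of the MYC branch act mainly on wound and insect responses. The ERF branch, which also needs ethylene, acts on antifungal defensin genes. The microRNA miR319 directs the cutting of mRNAs that encode a set of TCP transcription factors, and in Arabidopsis leaves these factors are known to activate LOX2, an early gene of jasmonate synthesis. LOX2, MIR319A and the 5 TCP genes cut through miR319 had no probe set named in the annotation and were not analysed here.

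All values are probe-set signals on a linear scale, which the authors had scaled so that the mean of each array, without its lowest and highest 2% of rows, was 200. Differences are jaw-D minus Columbia on the log2(signal + 16) scale, where the added 16 damps the noise of dim signals and understates the change of dim genes. A gene is called here when its p-value from limma, adjusted by the Benjamini-Hochberg method over all probe sets, is under 0.05. The 2 named leaf markers of 5, RCA and LHCB4.1, read from 7868.8 to 13088.8 on the 4 arrays, and the 3 named root markers of 4 read from 16.1 to 46.4. None of the 4 flower markers was named. The 25S rRNA control read 2760.2 and 407.9 on jaw-D arrays 1 and 2, against 3146.4 and 800.4 on Columbia arrays 1 and 2, so it separated the arrays by number and not by genotype. Its part in the results was not tested.

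Of the 5 genes, only PDF1.2b had a called probe set, which read lower in jaw-D leaves. The other 4 did not pass the test, PDF1.2 by little (adjusted p = 0.0542 by limma). All 5 had a negative log2 difference, with a median of -0.68 against a median of -0.04 over all probe sets. The 5 genes were chosen with earlier results of these data known. Their shared direction and the comparisons with all probe sets therefore describe the set and do not test it. The median over all probe sets is also not matched for brightness. It was -0.19 for mean signals from 16 to 32, where JMT and THI2.1 lie. Whether PDF1.2 and PDF1.2b count as separate measurements was not tested. Calls in the lower direction made up 0.154% of the 22746 probe sets. For OPCL1, JMT, PDF1.2 and PDF1.2b, 4 of the 5 genes, the higher jaw-D array was under the lower Columbia array, an arrangement found in 26.5% of all probe sets. The groups overlapped for THI2.1, as they did for 56% of all probe sets, and 17.5% had both jaw-D arrays higher. In bulk leaf RNA, fewer cells of a type and less RNA per cell cannot be told apart.

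**Figure D1:**
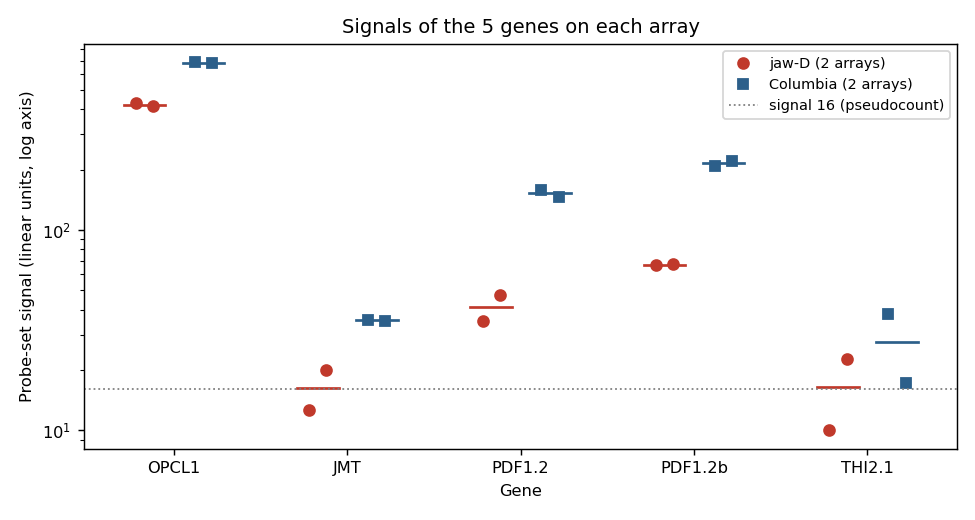
Probe-set signal (linear units, log axis) of each of the 5 genes on each of the 4 arrays, with jaw-D as circles and Columbia as squares and a short line at each mean of 2 arrays. The genotypes are apart for OPCL1, JMT, PDF1.2 and PDF1.2b and overlap for THI2.1, and the jaw-D signals of JMT and THI2.1 lie around the dotted line at 16.

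OPCL1, locus AT1G20510 on chromosome 1, encodes a peroxisomal ligase that joins coenzyme A to jasmonate precursors before their side chain is shortened by beta-oxidation. It read 428.2 and 415.6 on the jaw-D arrays, against 685.4 and 680.7 on the Columbia arrays. It was the brightest of the 5 genes, and its arrays of each genotype were nearly equal. The gap on the log2 scale between the nearest arrays of the genotypes was 0.65, against gaps of 0.04 within jaw-D and 0.01 within Columbia. The log2 difference was -0.67 (SE 0.14, 95% interval -1.03 to -0.32). Limma did not call it, with an adjusted p of 0.189. Among the 5324 probe sets with a mean signal over 256, 2.1% had a difference as low or lower. The difference was thus larger than the spread between the arrays of a genotype but did not pass over all probe sets.

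JMT, locus AT1G19640 on chromosome 1, encodes the methyltransferase that turns jasmonic acid into its volatile methyl ester. Its signals were 12.6 and 20 in jaw-D leaves, against 35.6 and 35.1 in Columbia leaves. All 4 signals were low and both jaw-D arrays were under both Columbia arrays. The means were 16.3 ± 5.23 and 35.4 ± 0.354 (SD, n = 2 arrays each). JMT had a log2 difference of -0.68 (SE 0.17, 95% interval -1.11 to -0.25) and an adjusted p of 0.236 by limma. This was close to the difference of OPCL1 although the mean signal in Columbia was 2.17 times that in jaw-D for JMT and 1.62 times for OPCL1, because the added 16 weighs more on a dim gene. With a pseudocount of 1 the difference of JMT was -1.11, and with 64 it was -0.31, while OPCL1 had -0.69 and -0.62 with the same pseudocounts.

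PDF1.2, locus AT5G44420 on chromosome 5, encodes a small secreted antifungal peptide and is widely used as a readout of joint jasmonate and ethylene signalling. It read 35.0 and 47.3 on the jaw-D arrays, against 158.4 and 145.9 on the Columbia arrays. The genotypes were well apart, with a log2 gap of 1.35 between their nearest arrays and gaps of 0.31 within jaw-D and 0.11 within Columbia. The mean in Columbia was 3.70 times the mean in jaw-D. PDF1.2 had a log2 difference of -1.56 (SE 0.17, 95% interval -1.99 to -1.14). Its adjusted p of 0.0542 by limma missed the threshold by little, and it stood at rank 52 of all probe sets by p. PDF1.2 was called under 4 of 14 alternatives. These were a pseudocount of 64 (adjusted p = 0.0467 by limma), an intensity trend (0.0325) and the fits on brighter probe sets (0.00758 and 0.00178). It was not called, for example, with a pseudocount of 1 (0.241) or a floor under dim signals (0.190).

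PDF1.2b, locus AT2G26020 on chromosome 2, encodes a closely related defensin. Its signals were 66.7 and 67.3 in jaw-D leaves, against 209.2 and 222.0 in Columbia leaves. Columbia exceeded jaw-D by a log2 gap of 1.43 between the nearest arrays, and the 2 jaw-D arrays differed by 0.01 only. The mean in Columbia was 3.22 times the mean in jaw-D. The log2 difference of PDF1.2b was -1.48 (SE 0.14, 95% interval -1.84 to -1.12), which is 2.79-fold lower on the log2(signal + 16) scale. With an adjusted p of 0.0420 by limma it was the 1 called gene of the 5, at rank 35 of all probe sets by p. Leaving out any 1 array ended the call, as it did for every called probe set, although the difference stayed between -1.52 and -1.44. The call was also lost under 3 other settings, among them a pseudocount of 1 (adjusted p = 0.214 by limma) and a floor under dim signals (0.0893). Over all probe sets 0 were called with that pseudocount and 1 with that floor, against 43 in the reported fit. PDF1.2b was called under 7 of 14 alternatives. A further fit over 13356 named genes, with 7 calls, was not read out for the 5 genes.

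The 2 defensin probe sets gave almost the same change, but whether they are separate measurements was not tested. The probe set of PDF1.2b is of the _x_at design, a type in which some probes may also match transcripts of other genes. That of PDF1.2 is of the _at design, meant for a single transcript. The letters of the probes were not compared here, so how much PDF1.2 transcript the PDF1.2b probe set took up, or the reverse, was not tested. The change of PDF1.2 minus that of PDF1.2b was -0.08 on the log2 scale, smaller than the SE of either. On jaw-D arrays 1 and 2 the log2 value of PDF1.2 minus that of PDF1.2b was -0.70 and -0.40, against -0.37 and -0.56 on Columbia arrays 1 and 2. These overlapped between genotypes, and with 2 arrays a genotype an exact permutation test cannot go below p = 0.333. Other related genes could add to either signal. In the gene order of the TAIR10.1 reference, PDF1.2 is followed by PDF1.2c and PDF1.2b is preceded by PDF1.3, both defensin genes with no probe set named here.

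THI2.1, locus AT1G72260 on chromosome 1, encodes a thionin, a small antimicrobial peptide whose gene is known to respond to jasmonate. It read 10 and 22.8 on the jaw-D arrays, against 38.1 and 17.2 on the Columbia arrays. The higher jaw-D array lay above the lower Columbia array. The gaps within genotypes, 0.58 in jaw-D and 0.70 in Columbia on the log2 scale, were both larger than the difference of -0.42 between genotypes (SE 0.30, 95% interval -1.17 to 0.33). Limma gave it an adjusted p of 0.632. Without 1 array the difference ran from -0.77 to -0.06, so it was not detectable with these arrays. The interval takes in no change as well as a fall the size of that of OPCL1 or JMT.

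**Figure D2:**
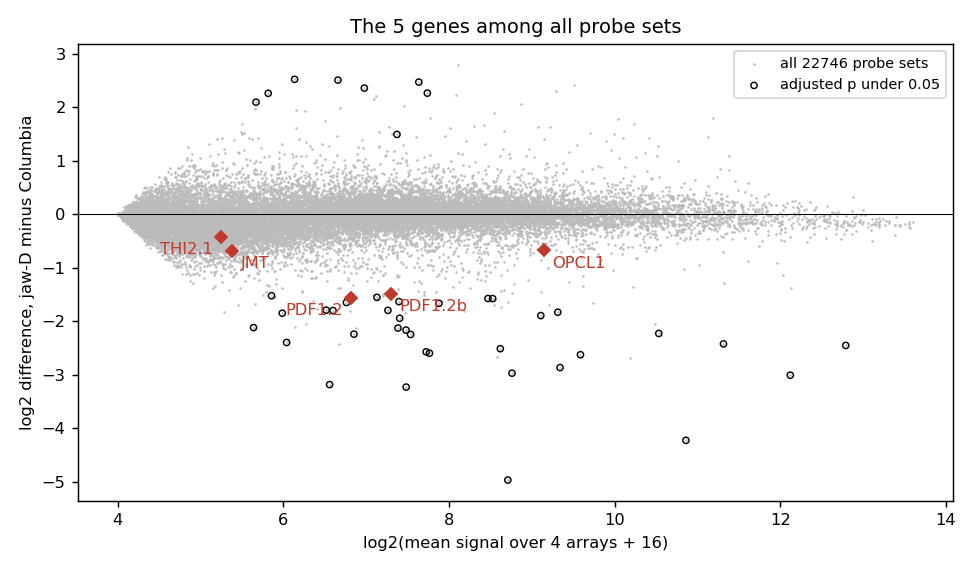
Log2 difference, jaw-D minus Columbia, against log2(mean signal over the 4 arrays + 16) for all 22746 probe sets (grey), with probe sets called at an adjusted p under 0.05 ringed and the 5 genes as red diamonds. PDF1.2 and PDF1.2b lie at the lower edge of probe sets of their brightness, whereas THI2.1 lies within the grey cloud.

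Many dim probe sets read lower on the jaw-D arrays. A signal under 16 was found for 22.3% and 21.7% of probe sets on jaw-D arrays 1 and 2, against 17.8% and 18.4% on Columbia arrays 1 and 2. In the 3187 probe sets with a mean signal from 16 to 32, where JMT and THI2.1 lie, the median log2 difference was -0.19 and 39.1% had both jaw-D arrays below both Columbia arrays. Of these, 5.80% had a difference as low as that of JMT or lower, and 21.8% one as low as that of THI2.1 or lower. The part of this general shift in the values of JMT and THI2.1 was not tested. The 6857 probe sets with a mean signal from 64 to 256, where PDF1.2 and PDF1.2b lie, had a median log2 difference of 0.01, and 20.8% had jaw-D below. In this band 0.365% of probe sets were as low as PDF1.2 or lower, and 0.452% as low as PDF1.2b or lower.

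Other genes of the jasmonate route and of the families of the members showed no called change. Over 11 lists of the pathway and of the gene families of the 5 members, 22 of 87 listed genes were named on the array. By limma 0 of the 22 were called, and at an unadjusted p under 0.05 there were 4 lower and 1 higher in jaw-D, against 8.47% lower and 4.53% higher over all probe sets. The jaw-D arrays were both below the Columbia arrays for 9 of the 22 and both above them for 2, against 26.5% and 17.5% of all probe sets. Most of those 9 had a mean signal up to 64, and 27.2% to 39.1% of probe sets in those bands had jaw-D below. The median log2 difference of the 22 was -0.16. The 4 lists of jasmonate synthesis, turnover and signalling held 10 of the 22, out of 48 listed. Their median was -0.12, with jaw-D below for 4 and above for 1. Calls in the higher direction made up 0.0352% of all probe sets. No probe set on the arrays with a difference under 1.48 in size was called. A gene left uncalled here may still differ by less than that, or by more, as PDF1.2 was uncalled at -1.56.

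In the peroxisome, where OPCL1 acts, 3 of 9 listed genes were named. AIM1, a multifunctional enzyme gene of beta-oxidation, read 1609.2 and 1386.5 in jaw-D leaves and 1553.8 and 1489.0 in Columbia leaves. Its log2 difference was -0.03 (SE 0.16), with overlapping groups. AT4G05160 and AT5G63380, on the list as relatives of OPCL1, had log2 differences of -0.22 and 0.14, and neither was called. Of the 12 listed genes for the chloroplast steps only the lipase gene DGL was named, and it was dim, at 22.0 and 12.2 in jaw-D against 7.3 and 12.7 in Columbia. The 3 peroxisomal genes had differences nearer to 0 than the -0.67 of OPCL1, but whether they differ from OPCL1 was not tested.

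Next to JMT, which consumes jasmonic acid, stand the genes listed for conjugation and turnover of the hormone, of which 4 of 10 were named. These 4 were on the list as JOX1 to JOX4, so they do not stand for the whole list. JRG21, a jasmonate-regulated gene, read 14.8 and 4.9 in jaw-D leaves, against 29.5 and 25.2 in Columbia leaves, a log2 difference of -0.77 (SE 0.22, adjusted p = 0.269 by limma). AT2G38240 read 20.8 and 23.9 in jaw-D, against 36.3 and 51.0 in Columbia, a log2 difference of -0.63. AT5G05600 was brighter, at 128.4 and 63.0 in jaw-D against 157.3 and 113.1 in Columbia, and its groups overlapped. The median of the 4 log2 differences was -0.57, and 3 of the 4 had both jaw-D arrays below, against 26.5% of all probe sets. In the bands of mean signal from 16 to 32 and from 32 to 64, where those 3 lie, the shares were 39.1% and 33.7%. Those 3 were dim like JMT, with mean signals of 18.4 for AT3G11180, 18.6 for JRG21 and 33.0 for AT2G38240, and the part of the general shift of dim probe sets was not tested. BSMT1, the 1 named gene of 5 further methyltransferases of the family of JMT, had a log2 difference of -0.15 with overlapping groups.

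None of the signalling genes named on the array was called. MYC3 and MYC4 encode transcription factors of the wound branch and were the 2 named genes of 17. MYC4 read 198.7 and 201.8 in jaw-D leaves, against 166.8 and 113.1 in Columbia leaves, a log2 difference of 0.49 (SE 0.21, adjusted p = 0.395 by limma). MYC3 had 0.08 with overlapping groups. EIN3, the ethylene-signalling factor and the 1 named gene of 8 activators of the defensin branch, read 751.7 and 740.5 in jaw-D, against 749.9 and 946.4 in Columbia, a log2 difference of -0.17. No gene listed as an output of the MYC branch, as an ERF-branch pathogenesis-related gene or as a classical 4-coumarate ligase was named.

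**Figure D3:**
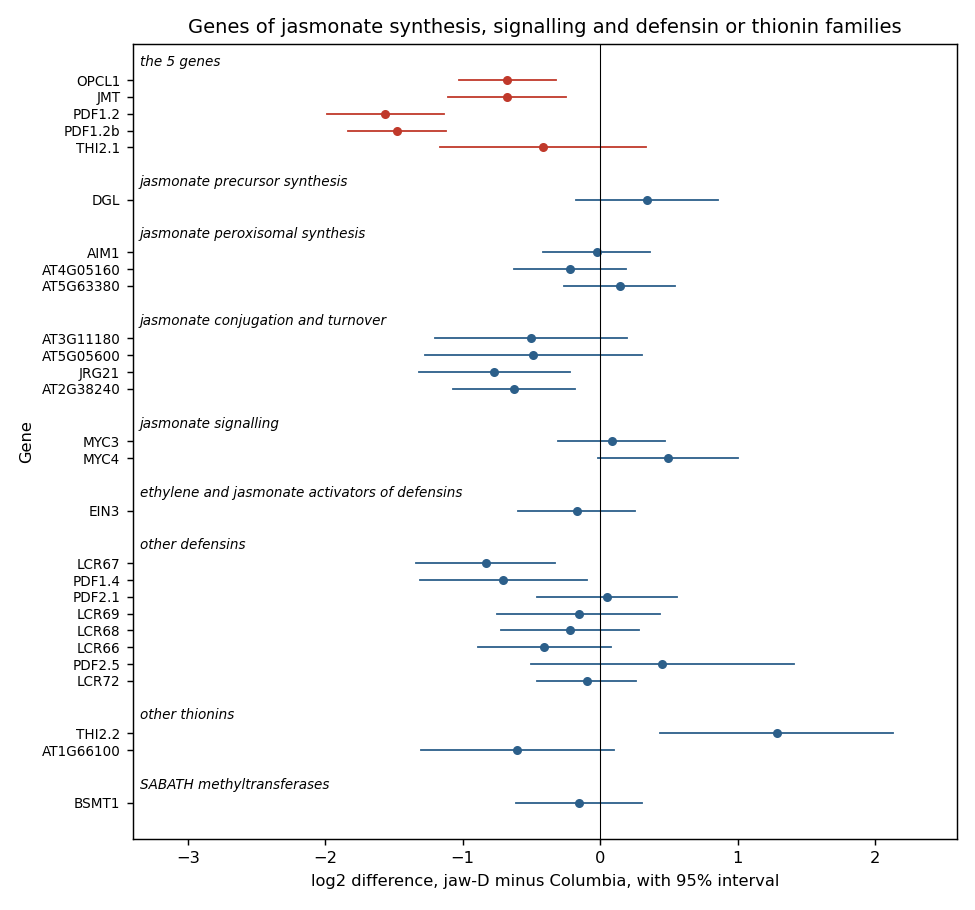
Log2 difference, jaw-D minus Columbia, with its 95% interval from limma for the 5 genes (red) and the 22 named genes of the pathway and family lists (blue, by list). The intervals of PDF1.2 and PDF1.2b lie wholly below -1, and no other gene drawn has such an interval.

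Other defensin genes differed from one another in brightness and in change. Of 11 listed, 8 were named, none was called, and their log2 differences ran from -0.83 to 0.45 with a median of -0.19. The bright genes LCR69 and LCR68, also named PDF2.2 and PDF2.3, read 828.7 and 1314.8, and 392.7 and 494.4, in jaw-D leaves. In Columbia leaves LCR69 read 1153.7 and 1177.2 and LCR68 read 589.7 and 450.7. Both overlapped between genotypes, with log2 differences of -0.16 and -0.22. The nearest named relatives of PDF1.2 by name were dim. LCR67, also named PDF1.1, read 1.6 and 0.8 in jaw-D against 9.8 and 20.4 in Columbia, a log2 difference of -0.83 (adjusted p = 0.224 by limma). PDF1.4 read 15.9 and 9.7 in jaw-D against 21.9 and 41.4 in Columbia, a log2 difference of -0.70 (adjusted p = 0.325). Both genes had jaw-D below Columbia, and both were dim, with mean signals of 8.15 for LCR67 and 22.2 for PDF1.4. In their signal bands 27.2% and 39.1% of probe sets had that arrangement.

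The 2 other thionin genes had differences of opposite sign. THI2.2 read 96.8 and 93.4 in jaw-D leaves, against 49.9 and 15.6 in Columbia leaves, a log2 difference of 1.28 (SE 0.34, adjusted p = 0.247 by limma). Both jaw-D arrays were above both Columbia arrays, and the Columbia arrays lay far apart. AT1G66100, listed with the thionins, was bright, at 1085.5 and 700.2 in jaw-D against 1621.9 and 1094.5 in Columbia, a log2 difference of -0.60 (adjusted p = 0.450). None of the 3 thionin genes, THI2.1 included, was called, and the differences between them were not tested.

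Genes beside the members on the chromosomes showed no called change. Of the 10 nearest protein-coding neighbours in TAIR10.1, 7 had a named probe set, and their log2 differences ran from -0.33 to 0.41. By limma 0 had an adjusted p under 0.05. An unadjusted p under 0.05 was found for 1 neighbour, against 8.47% lower and 4.53% higher over all probe sets. That 1 was AT5G44410, just before PDF1.2, which had 0.41, and AT1G20500, just before OPCL1, had 0.19.

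Likeness of pattern was measured as the Euclidean distance between the 4 log2 values of 2 probe sets, each centred on its own mean, over the 13512 other probe sets of 1 gene. For PDF1.2 the nearest were AT1G61890 at a distance of 0.205, the auxin-conjugating enzyme gene WES1, also named GH3.5, at 0.207, and scpl46, a serine carboxypeptidase-like gene, at 0.238. PDF1.2b came at place 4, at a distance of 0.265. For PDF1.2b the nearest were AT5G57760 at 0.0488, the transcribed pseudogene AT3G48650 at 0.134 and scpl46 at 0.145. Each defensin gene thus had genes of other families nearer to it than the other defensin gene. For OPCL1 the nearest were AT5G38195, the sugar transporter gene SWEET7 and AT2G23440, at distances from 0.0277 to 0.0386, all dimmer than OPCL1. With only 4 arrays, such a distance mostly reflects the size of the genotype difference.

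**Figure D4:**
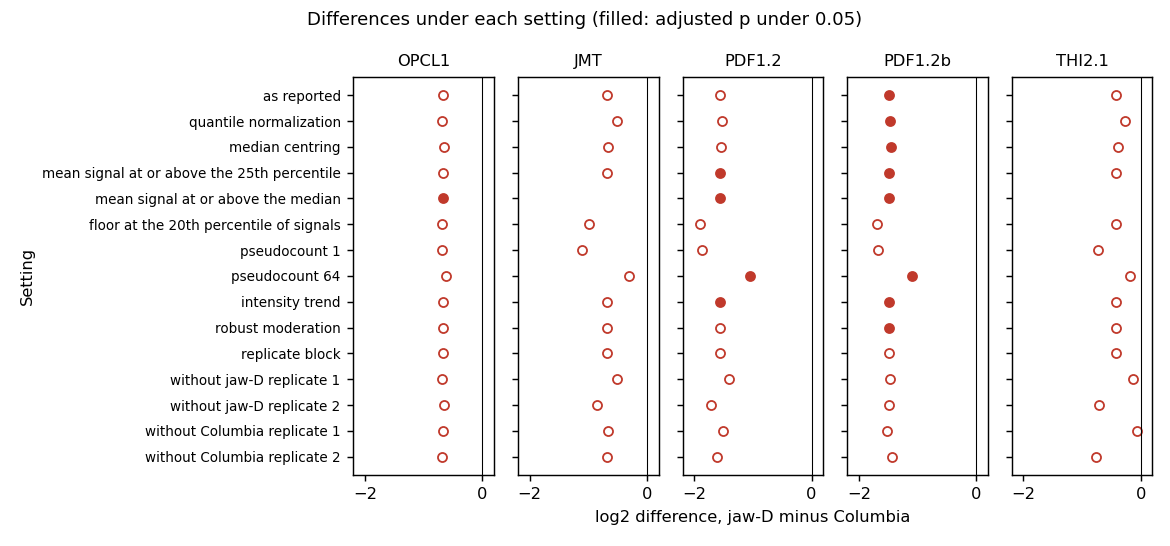
Log2 difference, jaw-D minus Columbia, of each of the 5 genes under the reported fit and under each alternative read out for it, with filled points for an adjusted p under 0.05. All points lie below 0, PDF1.2b is called under 7 alternatives and PDF1.2 under 4, OPCL1 is called under 1, and JMT and THI2.1 are called under none.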

How the data were processed

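Expression in expanded leaves was measured on 4 single-colour oligonucleotide arrays. The values deposited by the authors are linear signal intensities of probe sets, as their range shows, already scaled to a common trimmed mean. The software and summary method are not stated in the sources used here, and the table holds no detection calls. Genotypes came from the sample descriptions and replicate numbers from the titles. No column was left unassigned (0). Of 22810 rows, 64 array controls were left out. The platform annotation named 1 gene for 13513 probe sets, several for 503 and none for 8730, and 13436 were matched to TAIR10.1 loci, used for names and gene order. Log2(signal + 16) values were fitted over all 22746 probe sets with limma 3.58.1 in R 4.3.3 (lmFit, eBayes, 2 residual and 3.76 prior degrees of freedom), two-sided, with Benjamini-Hochberg adjustment. The number of arrays limits the precision. The fit was tested on simulated data. Alternatives changed the normalization, the filter, floor or pseudocount for dim signals, the variance moderation, the replicate block, the unit counted and the arrays included.

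The members and lists were chosen with earlier results of these data known. Genes are named by a rule: all members, up to 8 genes of each list that are at or above the median signal of 77.5 or have an unadjusted p under 0.05, and the 3 nearest patterns. DGL, BSMT1, AT3G11180, the neighbouring genes and the markers given as ranges were chosen outside the rule. Figures were drawn with matplotlib 3.10.9.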

Additional observations from a re-analysis of the deposited data

How the results depend on the processing

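All 5 genes kept a negative difference under every alternative read out for them. This leaves out the fit over named genes for all 5. It also leaves out the filter at the median signal for JMT and THI2.1, as neither reached it. The number of the 5 that were called was 1, where 43 of 22746 probe sets were called. With the filter at the 25th percentile of mean signal it became 2, where 224 of 17060 were called. All 3 that reached the filter at the median were called, where 291 of 11375 were called. The number was 2 with a pseudocount of 64 (56 of all probe sets) or an intensity trend (103). It was 0 with a floor of 15.9 (1 of all probe sets), a pseudocount of 1 (0) and the replicate block (66). PDF1.2b lost its call with the floor (-1.69), a pseudocount of 1 (-1.67), the replicate block (-1.48, adjusted p 0.0518) and each array left out (-1.52 to -1.44). PDF1.2 gained one with both filters and the trend (each -1.56) and a pseudocount of 64 (-1.04), and OPCL1 with the filter at the median (-0.67, adjusted p 0.0449). The filters test fewer probe sets, and the fit with its variance moderation was run anew on those kept. Leaving out an array leaves fewer samples. The cause of the changed calls was not tested for any setting.

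Over all probe sets the 43 calls among 22746 became 224 among 17060 and 291 among 11375 with the filters. The calls became 103 with the trend, 66 with the replicate block, 7 over 13356 named genes and 1 with the floor. They were 0 with a pseudocount of 1, against 2538 at an unadjusted p under 0.05 there. They were 0 without each array in turn, with 1978 to 2492 at an unadjusted p under 0.05. There the lone array is assumed to vary like the other genotype. Deviations of arrays with the same number correlated at -0.0743, which does not meet the mark for pairing, although in both genotypes the 25S rRNA signal of array 1 exceeded that of array 2. What a number shares is not known. With no detection calls, the background under JMT, THI2.1 and the other dim genes is unknown.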
